A study of Rattus norvegicus with 10 samples.

Results

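The comparison covered the bulk RNA-seq of the dentate gyrus after traumatic brain injury (TBI), 3 TBI libraries against 3 sham libraries. The members were the 6 libraries of the series' 10 that the sample titles name as bulk TBI or bulk sham, and all 14166 genes of the deposited table were read in each of them. Male Sprague-Dawley rats received a craniectomy over the right side, and 3 days later lateral fluid percussion injury (LFPI), a pulse of fluid onto the intact dura. Sham rats had the same craniectomy, anaesthesia and attachment but no pulse, so surgery is common to both groups. The dentate gyrus of the operated side was taken 3 weeks after injury, and each library is 1 rat. All rats had isoflurane and the opioid buprenorphine. The tissue is the whole dissected dentate gyrus and holds all of its cell types, and the labels give no cell type beyond the word male.

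The dentate gyrus is the entry gate of the hippocampus. Its granule neurons receive cortical input, are held in check by interneurons and sit among astrocytes, microglia, oligodendrocytes and vessels. Microglia and astrocytes react to injury by changing what they express, and the interferon response, antigen presentation and the lysosome are programmes that microglia are known to use. In bulk tissue a higher value can mean more cells of a type or more RNA per cell, and in these libraries the readings cannot be told apart.

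Values below are CPM, a gene's share of its library's estimated reads scaled to the same total in every library, given in the order of replicates 1, 2 and 3. Log2FC is TBI against sham from edgeR's quasi-likelihood fit, so that a Log2FC of 1 is a 2-fold difference. Its standard error (SE) was derived from the test, as the absolute Log2FC divided by the square root of the test's F. A value with ± in brackets is always this Log2FC with its SE. Where a gene has 3 values and then 3 more, sham comes before TBI. By that test 0 of 14166 genes (0.0%) passed an FDR of 0.05, with a smallest FDR of 0.196, and 1360 genes had p under 0.05 before adjustment. The words higher and lower are therefore used without a claim that a gene passed edgeR's test. Of those 1360 genes, 1162 (8.2% of all genes) were higher in TBI and 198 (1.4%) were lower. DESeq2, the study's own tool, called 338 genes higher at an FDR of 0.05 (2.39%) and 11 lower (0.0777%). The 3 TBI libraries all lay above the 3 sham libraries for 1656 genes (11.7%) and all below them for 431 (3.04%). After TMM scaling those numbers were 1438 and 686. The counts moved with single libraries. The number higher at p under 0.05 was 713 without sham 3, and the number lower was 604 without sham 1, 327 without TBI 2 and 66 without TBI 3. DESeq2's calls higher were 118 without sham 3 and 223 without TBI 3, and its calls lower were 71 without sham 1, 18 without TBI 2, 6 without TBI 3 and 4 without sham 3.

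The 1162 genes higher at p under 0.05 had a median Log2FC of 0.90, with 490 of at least 2-fold and 107 of at least 4-fold. For the 198 lower genes the median was −0.35, 172 of them differed by less than 1.5-fold, and 14 were at least 2-fold lower. Among genes with a mean of 1 to 5 CPM, 12.7% were higher and 0.287% lower at p under 0.05. Among genes over 100 CPM, 3.85% were higher and 2.46% lower. CPM is a scale that is not per length. The plot of Log2FC against level shows both clouds.

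**Figure D1:**
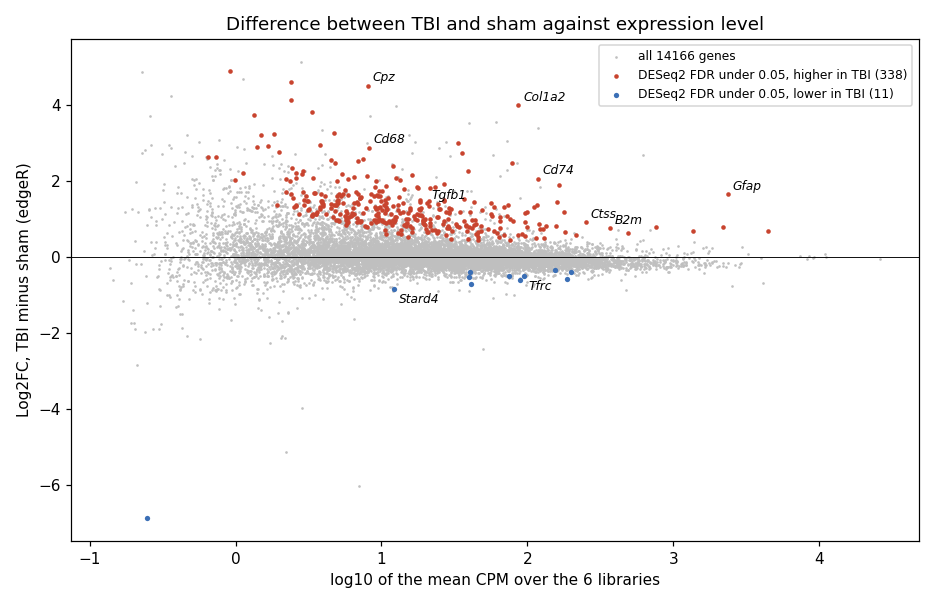
Each point is a gene, with the log10 of its mean CPM over the 6 libraries on the horizontal axis and its edgeR Log2FC of TBI against sham on the vertical axis. Grey points are all 14166 genes, red and blue the 338 and 11 that DESeq2 called higher and lower, and 10 of those 11 lie within 1 of no difference while the red ones reach 4.91.

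Several libraries stood apart in their cell type markers, and this touches the results below. Summed over the 13 measured granule neuron markers, sham 1 held 946 CPM, TBI 1 held 698 CPM and TBI 3 held 537 CPM, against 242, 219 and 244 CPM in sham 2, sham 3 and TBI 2. The defining marker Prox1, a transcription factor of granule neurons, read 106, 25.6 and 16.0 CPM in sham and 76.0, 24.8 and 47.8 CPM in TBI. Every library thus carried granule neuron RNA, at levels that split each group. Myelin and oligodendrocyte genes summed to 19284 CPM in sham 2 and to between 5780 and 9003 CPM in the other 5 libraries. Smooth muscle genes summed to 1222 CPM in TBI 3 and to at most 335 CPM elsewhere, and collagen and fibroblast genes to 2683 CPM in TBI 3 and at most 704 CPM elsewhere. Sham 2 also held most of the neutrophil gene S100a9, 0, 16.1 and 0 CPM in sham against 0.485, 0.131 and 0.427 CPM in TBI, and of the cytokine Il1b, 0.267, 9.65 and 0.0228 CPM against 0.687, 0.947 and 0.677 CPM. The choroid plexus gene Ttr read 1.49, 17.5 and 1.30 CPM in sham and 0.607, 6.27 and 17.4 CPM in TBI, high in sham 2 and TBI 3. The deposited date of injury fell before July, here called spring, for sham 1, sham 2 and TBI 1. It fell in July or later, here called autumn, for sham 3, TBI 2 and TBI 3. These are the surgery periods named below.

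**Figure D2:**
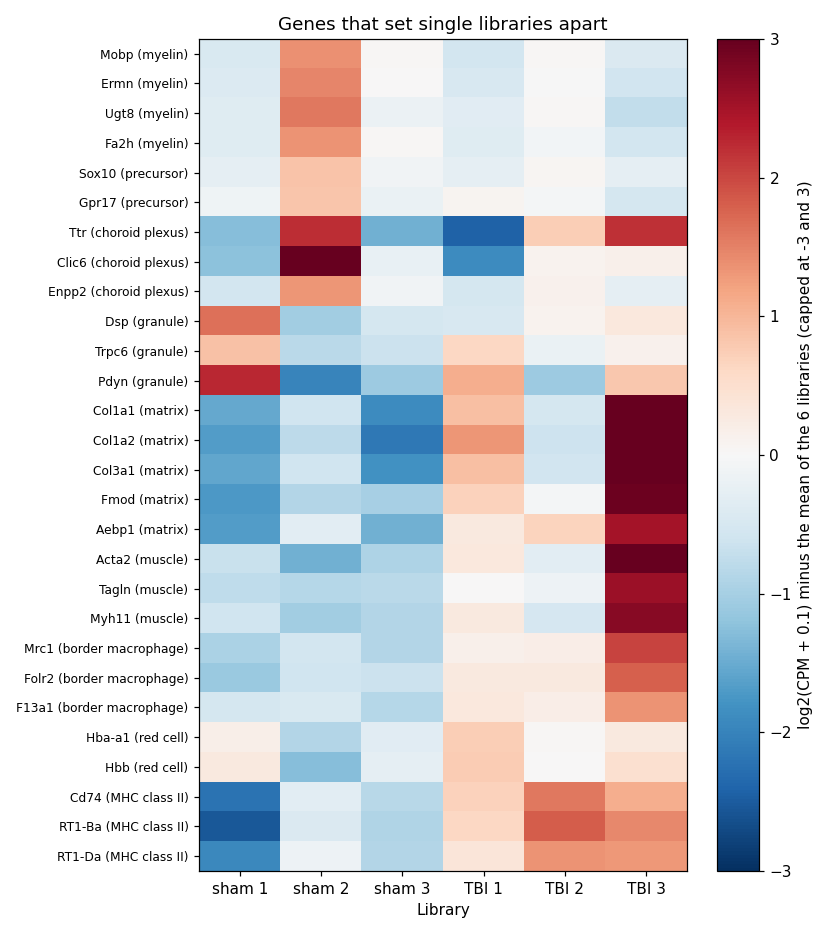
Rows are genes of single cell types (named in brackets), columns the 6 libraries, and colour is log2(CPM + 0.1) minus the mean of the 6 libraries, capped at 3 in either direction. Myelin genes are high in sham 2, the granule neuron gene Pdyn in sham 1, TBI 1 and TBI 3, and matrix and muscle genes in TBI 3.

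The lists of genes by function gave the outline of the injured tissue. Of 52 lists, the highest medians belonged to collagens and fibroblast genes (1.75), MHC class II genes (1.70) and reactive astrocyte genes (1.57), where the median over all genes was 0.00. The lowest belonged to myelin genes (−0.59), cholesterol genes (−0.36) and metabotropic glutamate receptors (−0.29). The collagen median was 0.86 without TBI 3, and the myelin median was 0.02 without sham 2. Glycolysis, oxidative phosphorylation, protein folding, cell cycle and immediate-early genes had medians near 0.

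**Figure D3:**
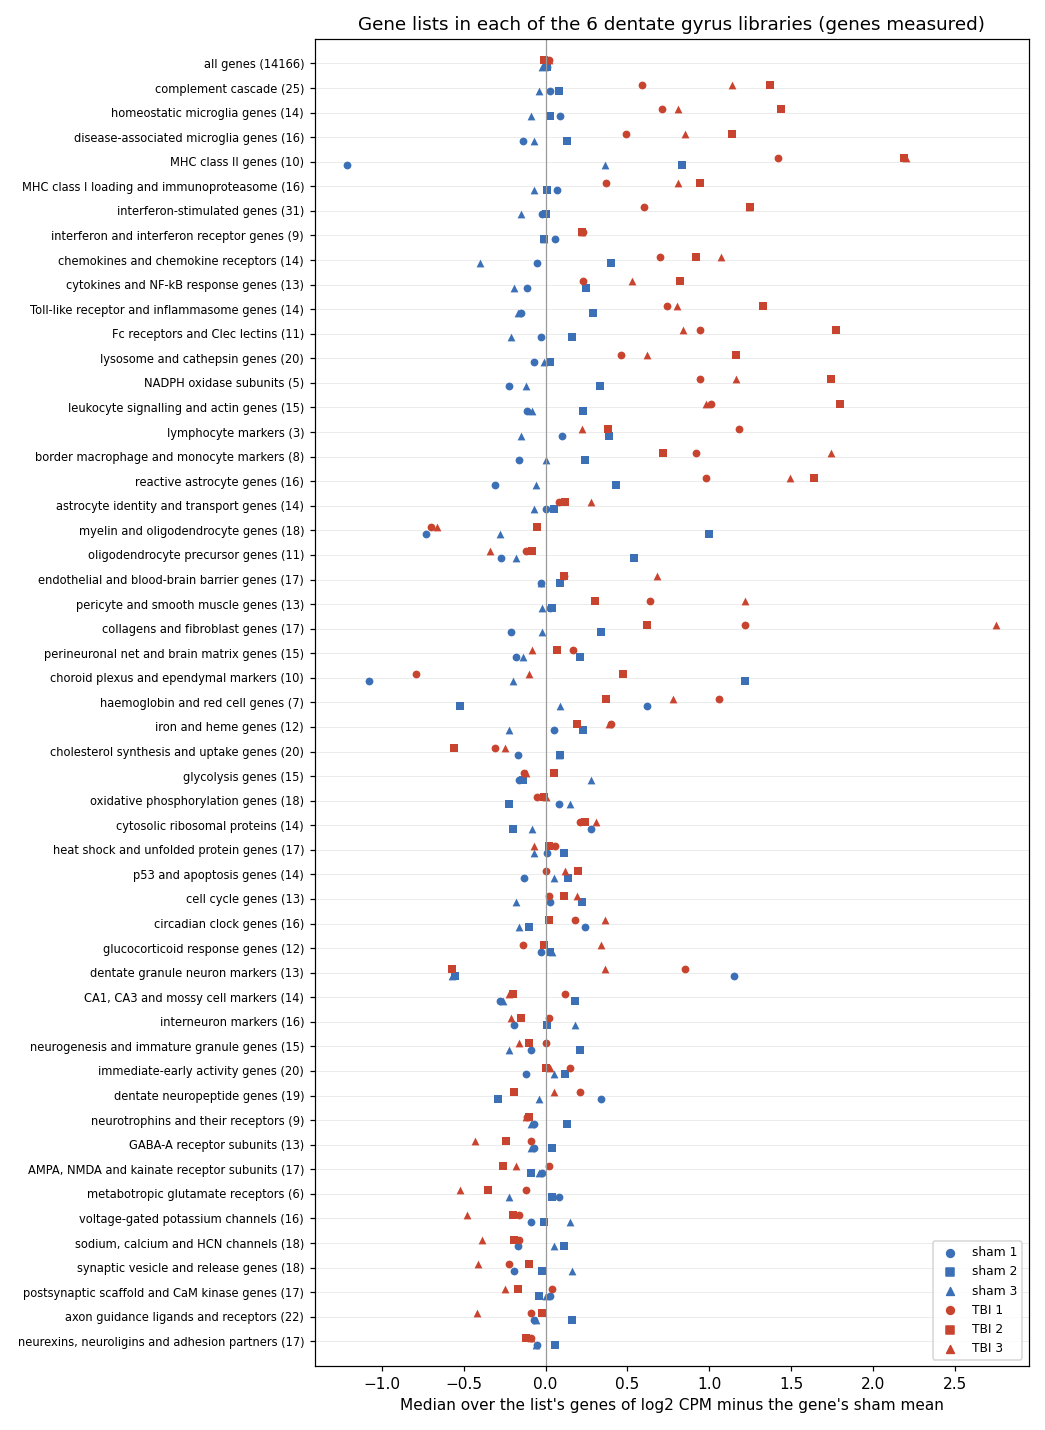
Rows are the 52 gene lists with the number of genes measured, below a row of all genes. Points are the 6 libraries (blue sham, red TBI, with a shape for each replicate), placed at the median over the list's genes of log2 CPM minus the gene's sham mean. The red points lie to the right of all blue ones for complement, lysosome and reactive astrocyte genes, to their left for cholesterol genes, and among them for granule neuron markers.

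Interferon-stimulated genes, which cells switch on when interferon binds its receptor and which restrict viruses, were higher as a group. Of 31 measured, 23 had p under 0.05 and were higher, 22 had all TBI libraries above all sham libraries and DESeq2 called 12, with a median Log2FC of 1.05. Beside this stand the shares of all genes, 8.2%, 11.7% and 2.39%. No member was lower at p under 0.05. Leaving out single libraries gave medians from 0.85 to 1.23.

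Interferon signalling is known to act through short promoter elements. Promoters of some members are printed here, from 250 bases before to 50 bases after the start site. In each list the genes of smallest edgeR p were taken among those whose promoter held the element marked below, so each shows it. The promoters come from RefSeq on the build GRCr8, which is not the build of the counts, and are written 5′ to 3′ on the gene's strand. Capitals mark GAAANNGAAA or, on the other strand, TTTCNNTTTC, a simple form of the interferon response element. Lgals3bp at chr10:104127799-104128098 on the minus strand and Xaf1 at chr10:57415685-57415984 on the plus strand are interferon-stimulated genes. Psmb8 at chr20:4656982-4657281 (minus) and B2m at chr3:129549080-129549379 (plus) belong to the MHC class I pathway.
Lgals3bp: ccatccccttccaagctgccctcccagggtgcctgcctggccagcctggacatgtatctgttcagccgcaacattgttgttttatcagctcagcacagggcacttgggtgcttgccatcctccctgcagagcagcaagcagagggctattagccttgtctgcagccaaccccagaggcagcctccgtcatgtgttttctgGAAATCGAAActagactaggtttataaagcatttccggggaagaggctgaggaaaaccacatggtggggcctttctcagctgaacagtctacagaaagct
Xaf1: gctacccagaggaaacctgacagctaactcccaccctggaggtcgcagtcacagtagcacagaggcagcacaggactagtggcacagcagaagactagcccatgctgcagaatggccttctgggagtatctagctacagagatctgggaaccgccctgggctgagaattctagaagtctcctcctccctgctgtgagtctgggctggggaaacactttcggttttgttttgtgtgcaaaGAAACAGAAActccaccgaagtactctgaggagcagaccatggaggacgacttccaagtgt
Psmb8: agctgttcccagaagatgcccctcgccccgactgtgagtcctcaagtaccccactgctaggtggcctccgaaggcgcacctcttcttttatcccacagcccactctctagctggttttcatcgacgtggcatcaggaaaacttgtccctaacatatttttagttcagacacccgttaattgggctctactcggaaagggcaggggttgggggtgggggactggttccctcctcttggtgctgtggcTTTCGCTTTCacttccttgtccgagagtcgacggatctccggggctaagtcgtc
B2m: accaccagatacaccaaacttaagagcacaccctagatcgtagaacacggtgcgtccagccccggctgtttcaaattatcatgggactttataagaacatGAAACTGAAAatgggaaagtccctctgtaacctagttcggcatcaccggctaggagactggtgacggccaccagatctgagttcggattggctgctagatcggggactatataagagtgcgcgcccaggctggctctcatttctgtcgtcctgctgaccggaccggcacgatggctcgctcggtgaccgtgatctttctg

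This element stood in 1131 of all 27457 promoters of that length (4.12%) and in 355 of the 11242 promoters of genes in the bulk table (3.16%). It stood in 15 of the 24 interferon-stimulated genes with a promoter in the table (62.5%). It also stood in 8 of 14 genes of MHC class I loading and the immunoproteasome (57.1%). None of 8 MHC class II genes and none of 7 homeostatic microglia genes held these letters in this window. A match is a description of the letters and not a site that was measured.

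Mx2, a GTPase that restricts viruses, read 20.01, 13.9 and 15.6 CPM in sham and 35.7, 48.0 and 40.1 CPM in TBI. All TBI libraries lay above all sham libraries, with a Log2FC of 1.29 ± 0.17 and DESeq2 FDR = 3.15e-07. Slfn9, a schlafen family gene, read 4.42, 6.12 and 4.94 CPM against 15.2, 31.5 and 18.9 CPM, a Log2FC of 2.05 ± 0.30. TBI 2 was the highest library for both. Lgals3bp, a secreted glycoprotein that binds galectins, read 17.2, 15.7 and 18.9 CPM and 30.9, 47.7 and 50.7 CPM (1.28 ± 0.19). Xaf1, which promotes cell death downstream of interferon, was sparse at 1.83, 1.58 and 1.44 CPM and 3.72, 4.80 and 5.27 CPM (1.47 ± 0.25). In these genes TBI 3 was the highest library, so the order of the TBI rats was not the same in every interferon gene. Rsad2 and Isg15, an antiviral enzyme and a ubiquitin-like modifier, read at most 1.64 and 2.67 CPM in sham and at least 2.99 and 4.12 CPM in TBI. Mx1, also antiviral, split sham at 1.89, 3.85 and 21.0 CPM against 14.6, 14.9 and 27.4 CPM in TBI, and sham 3 lay above TBI 1 and TBI 2. Stat2, a factor that carries the interferon signal, and Cmpk2, a nucleotide kinase, had Log2FC of 0.06 ± 0.10 and −0.03 ± 0.12.

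The list of interferons, receptors and regulators had 9 members measured and a median Log2FC of 0.15, which ran from 0.11 without TBI 3 to 0.31 without sham 1. At p under 0.05 3 were higher (8.2% of all genes), and 5 had all TBI libraries above sham (11.7% of all genes). Ifngr1, a chain of the interferon gamma receptor, read 49.9, 43.6 and 47.9 CPM in sham and 67.5, 102 and 77.4 CPM in TBI (0.77 ± 0.16). Irf8, a factor of the microglial and myeloid lineage, read 7.96, 9.43 and 5.51 CPM and 18.8, 46.5 and 17.9 CPM (1.83 ± 0.41). The third was Irf1, a factor that interferon induces (0.63 ± 0.17). For all 3, each TBI library was above each sham library, while the type I receptor chains Ifnar1 and Ifnar2 differed by 0.14 ± 0.09 and 0.09 ± 0.14.

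MHC class I molecules show peptides from inside the cell, and the immunoproteasome cuts those peptides. Of 16 measured genes, 13 were higher at p under 0.05 (8.2% of all genes), 12 lay above sham without overlap (11.7% of all genes) and the median Log2FC was 0.73. Psmb8, a catalytic subunit of the immunoproteasome, read 4.08, 4.92 and 5.16 CPM in sham and 12.6, 19.1 and 13.1 CPM in TBI, the lowest TBI library more than 2-fold above the highest sham library. Its Log2FC was 1.62 ± 0.22, with DESeq2 FDR = 1.49e-06. B2m, the light chain of class I molecules, read 286, 266 and 254 CPM and 386, 534 and 479 CPM (0.76 ± 0.13). Psme1, an activator of the proteasome, and Tap1, a peptide transporter, differed by 0.87 ± 0.17 and 0.92 ± 0.19. RT1-A3, a rat class I gene, read 12.2, 13.5 and 15.9 CPM and 30.9, 54.2 and 35.3 CPM (1.497 ± 0.23). Rat class I genes are near copies of each other, so their reads may have been divided among them. Tap2, Erap1 and Psme2 overlapped between groups.

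MHC class II molecules show peptides from outside the cell and mark activated microglia and macrophages. Of 10 measured genes, 8 were higher at p under 0.05 (8.2% of all genes) and 1 was lower (1.4% of all genes). The median Log2FC was 1.70. Cd74, the invariant chain that guides class II molecules, read 18.4, 68.5 and 47.6 CPM in sham and 138, 257 and 182 CPM in TBI (2.06 ± 0.46). RT1-Ba, a class II alpha chain, read 1.26, 5.76 and 4.12 CPM and 12.1, 27.7 and 21.3 CPM (2.40 ± 0.53). Sham 1 was the lowest library for both, yet no sham library reached any TBI library. Ciita, the factor that class II genes need, was sparse, 0.419, 0.440 and 0.546 CPM against 1.09, 1.27 and 2.06 CPM (1.596 ± 0.43). The exception was RT1-DMa, part of the complex that loads peptides, at 14.8, 16.6 and 15.9 CPM in sham and 10.5, 12.6 and 6.53 CPM in TBI (−0.71 ± 0.24). Its partner RT1-DMb went the other way, with 7.33, 6.79 and 6.17 CPM and 11.2, 16.8 and 11.9 CPM (0.95 ± 0.19). Each of these genes separated the groups completely, in opposite directions, and RT1-DMa was not lower at p under 0.05 without sham 2 or without sham 3. The promoter of RT1-Ba at chr20:4576807-4577106 on the plus strand of GRCr8 is shown for its CCAAT box, in capitals as ATTGG.
RT1-Ba: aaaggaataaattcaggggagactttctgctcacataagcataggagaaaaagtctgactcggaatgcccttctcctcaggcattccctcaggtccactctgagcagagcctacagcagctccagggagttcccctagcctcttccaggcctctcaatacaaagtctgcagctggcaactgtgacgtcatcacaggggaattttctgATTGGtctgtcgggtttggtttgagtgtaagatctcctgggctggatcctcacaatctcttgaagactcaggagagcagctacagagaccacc

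CCAAT or its reverse ATTGG stood in the promoters of 8 of 8 class II genes and in 39.6% of all promoters.

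Complement tags debris and synapses for removal, and its list had a median Log2FC of 1.18. Of 25 members 16 were higher at p under 0.05 (8.2% of all genes) and 15 lay above sham without overlap (11.7% of all genes). C1s, a protease of the first complex, read 9.52, 9.90 and 8.52 CPM in sham and 17.8, 33.8 and 30.3 CPM in TBI (1.51 ± 0.24). C2 followed with 11.6, 11.6 and 9.40 CPM and 27.2, 61.7 and 38.5 CPM (1.93 ± 0.29). C3, the central component, read 20.9, 93.5 and 43.0 CPM and 139, 325 and 118 CPM (1.85 ± 0.60), with sham 2 close to TBI 3. Clu, a chaperone that also limits the terminal complex, read 1061, 1117 and 903 CPM and 1425, 2145 and 1557 CPM (0.70 ± 0.18). The receptors C3ar1 and C5ar1, the lectin pathway proteases Masp1 and Masp2 and the regulator Cd59b overlapped between groups. C7, of the terminal complex, was high in TBI 3 alone, 1.33, 4.33 and 1.30 CPM in sham and 2.83, 2.65 and 54.1 CPM in TBI.

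Homeostatic microglia genes, which mark resting microglia, were also higher rather than lower. Of 14 measured genes 12 were higher at p under 0.05 (8.2% of all genes). The median Log2FC was 1.03, and 0.65 without TBI 2. Their sum was 359 to 396 CPM in sham and 624 to 1080 CPM in TBI. Csf1r, the receptor microglia need to survive, read 109, 118 and 95.4 CPM in sham and 189, 363 and 202 CPM in TBI (1.19 ± 0.26). P2ry12, a receptor that guides their processes, read 12.9, 11.7 and 10.7 CPM and 20.6, 40.0 and 16.8 CPM (1.10 ± 0.32). TBI 2 was highest and the groups did not overlap. Tmem119 read 24.8, 14.2 and 29.8 CPM and 30.5, 34.8 and 41.8 CPM (0.60 ± 0.26, p above 0.05). The part of these markers in the immune results was not tested.

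Genes of disease-associated microglia moved with 1 library. Of 16 measured, 11 were higher at p under 0.05 (8.2% of all genes). Without TBI 2 that number was 6 and the median of 0.81 became 0.45. Gpnmb, a membrane glycoprotein of phagocytes, read 8.80, 19.3 and 12 CPM in sham and 42.0, 109 and 45.6 CPM in TBI (2.26 ± 0.45). Tyrobp, the adaptor of Trem2, read 10.8, 11.99 and 10.4 CPM and 23.2, 47.6 and 23.7 CPM (1.48 ± 0.29). Axl, a receptor for tagged dying cells, read 44.9, 47.6 and 38.0 CPM and 68.8, 96.6 and 94.9 CPM (0.96 ± 0.16). All TBI libraries lay above all sham libraries in these genes. Spp1, a secreted matrix protein, split both groups at 0.495, 13.1 and 0.774 CPM and 8.69, 22.1 and 3.67 CPM. Lpl, a lipase, read 69.5, 111 and 145 CPM and 74.4, 99.0 and 78.0 CPM (−0.41 ± 0.26), and Cd9 overlapped with a high sham 2.

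Lysosomal genes serve the digestion of engulfed material. Of 20 measured, 15 were higher at p under 0.05 (8.2% of all genes), with a median Log2FC of 0.72. Cd68, a lysosomal protein of phagocytes, read 1.75, 2.35 and 1.73 CPM in sham and 9.95, 25.4 and 8.44 CPM in TBI. Even the lowest TBI library was well above the highest sham library, with a Log2FC of 2.88 ± 0.46 and DESeq2 FDR = 3.15e-07. The protease Ctsz read 18.1, 19.6 and 18.2 CPM and 44.0, 79.2 and 41.2 CPM (1.52 ± 0.26). Npc2, which carries cholesterol out of the lysosome, read 82.8, 84.1 and 84.5 CPM and 176, 361 and 172 CPM (1.46 ± 0.29). Grn, progranulin, read 55.9, 57.6 and 61.5 CPM and 102, 196 and 106 CPM (1.17 ± 0.26). The sham libraries lay close together in these genes, and TBI 2 was the highest library. The membrane proteins Lamp1 and Lamp2 and the transmembrane protein Tmem106b overlapped between groups.

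**Figure D4:**
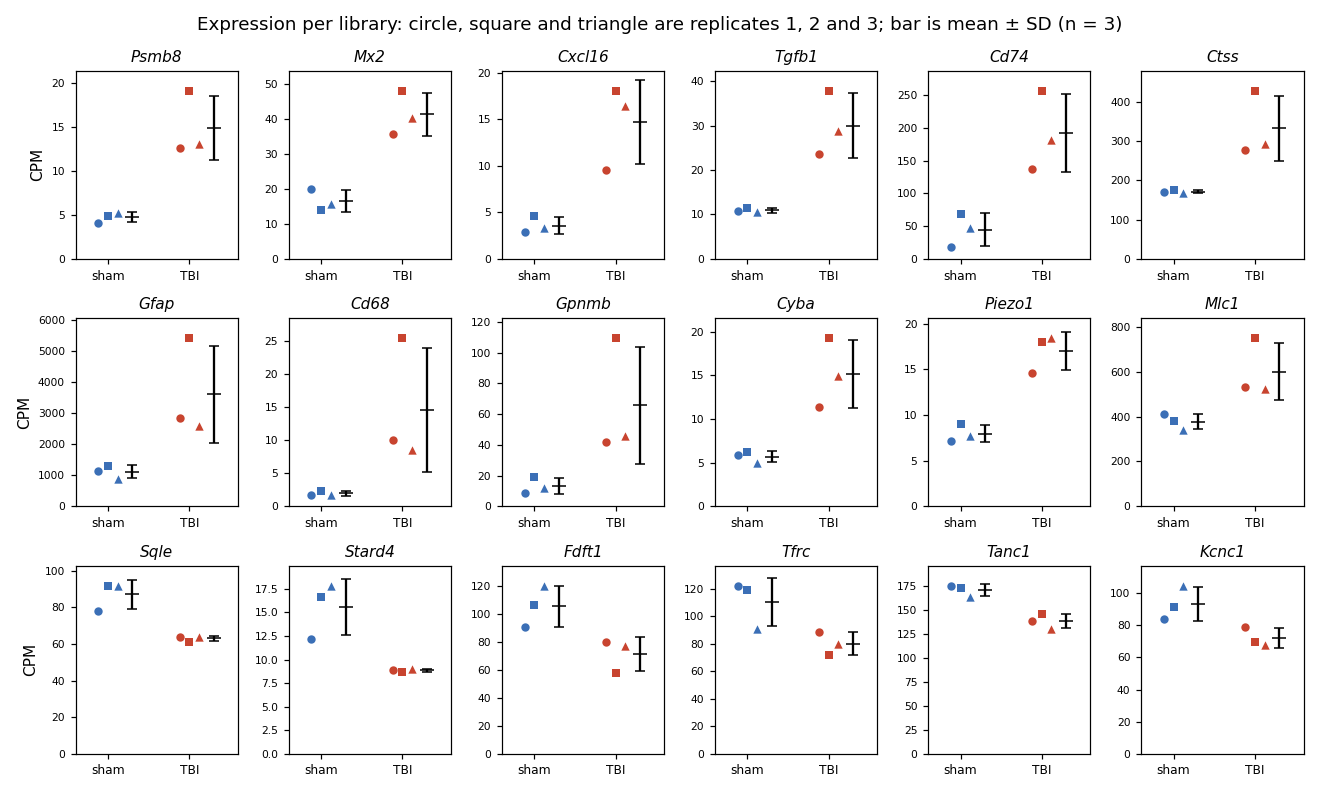
Each panel is a gene, with CPM on an axis from 0, points for the 3 sham (blue) and 3 TBI (red) libraries, and a bar for the mean ± SD (n = 3). In the upper rows the groups lie apart with a wide TBI spread, as for Psmb8 (sham at most 5.16 CPM, TBI at least 12.6 CPM), and in the lowest row the TBI libraries lie below sham by small margins.

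All 5 measured subunits of the NADPH oxidase, with which phagocytes make superoxide, were higher at p under 0.05 (8.2% of all genes). Their median Log2FC was 1.25. Cyba, the oxidase's membrane subunit, read 5.83, 6.24 and 4.99 CPM in sham and 11.4, 19.2 and 14.9 CPM in TBI (1.38 ± 0.22). Cybb, the catalytic subunit, read 1.75, 4.83 and 3.43 CPM and 5.77, 5.06 and 13.8 CPM (1.25 ± 0.49), where TBI 2 lay just above sham 2. All 5 lay above sham without overlap (11.7% of all genes). Of 15 leukocyte signalling and actin genes 13 were higher at p under 0.05 (8.2% of all genes), with a median of 1.29. Arpc1b, a subunit of the complex that branches actin, read 14.4, 16.5 and 13.3 CPM and 28.3, 43.9 and 35.9 CPM (1.26 ± 0.18). Vav1, an exchange factor for small GTPases, read 2.44, 2.75 and 2.53 CPM and 6.96, 11.3 and 5.98 CPM (1.61 ± 0.28). Inpp5d and Coro1a overlapped, and their Log2FC were 0.49 ± 0.37 and −0.05 ± 0.18.

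Pattern recognition and Fc receptors followed. Of 14 Toll-like receptor and inflammasome genes 10 were higher at p under 0.05 (8.2% of all genes), and 6 without TBI 2. Their median was 0.90. Tlr7, a sensor of single-stranded RNA, read 5.90, 5.91 and 4.37 CPM in sham and 8.90, 20.03 and 11.5 CPM in TBI (1.29 ± 0.31). Pycard, the inflammasome adaptor, read 2.06, 2.49 and 2.07 CPM and 3.96, 7.32 and 4.99 CPM (1.26 ± 0.29). The sensor Nlrp3 overlapped, with 2.59, 4.22 and 2.80 CPM and 3.96, 9.90 and 4.59 CPM (0.91 ± 0.40). Of 11 Fc receptors and Clec lectins 9 were higher (8.2% of all genes), with a median of 1.22 that became 0.74 without TBI 2. Clec4a3, a C-type lectin, read 1.14, 0.917 and 0.957 CPM and 4.65, 5.95 and 3.56 CPM (2.19 ± 0.30). Clec12a, an inhibitory lectin, read 0.0762, 0.697 and 0.251 CPM and 2.51, 4.61 and 2.92 CPM (3.25 ± 0.68).

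Cytokines and chemokines were more divided. Tgfb1, an anti-inflammatory and fibrosis-related cytokine, was among the 5 genes of smallest edgeR p, with 10.7, 11.6 and 10.5 CPM in sham and 23.5, 37.8 and 28.7 CPM in TBI (1.42 ± 0.19). The adhesion molecule Icam1 read 3.58, 4.18 and 2.92 CPM and 6.79, 10.8 and 12.4 CPM (1.46 ± 0.27), and Vcam1 read 34.7, 38.1 and 31.9 CPM and 45.1, 58.0 and 60.9 CPM (0.61 ± 0.14). These 3 genes separated the groups. Il18, Il1rn and Tnfaip3 overlapped, and Ptgs2, the inducible cyclooxygenase, read 57.2, 47.0 and 41.9 CPM and 41.6, 44.98 and 27.9 CPM (−0.38 ± 0.20). The list of 13 had a median of 0.45, or 0.68 without sham 2. At p under 0.05 7 were higher (8.2% of all genes), and 3 were higher without sham 3 or without TBI 2. Among 14 chemokines and receptors 5 were higher (8.2% of all genes), or 3 without sham 1 or TBI 3. Cxcl16, a chemokine anchored to the membrane, read 2.86, 4.58 and 3.30 CPM and 9.54, 18.1 and 16.5 CPM (2.00 ± 0.30). Cxcl10, an interferon-induced chemokine, was sparse at 0.0762, 0.257 and 0.182 CPM and 0.566, 1.24 and 1.57 CPM (2.63 ± 0.64). Cx3cl1 and Cxcl12, chemokines of neurons and vessels, differed by −0.09 ± 0.17 and 0.16 ± 0.20. The chemokine median of 0.93 ranged from 0.54 without sham 3 to 1.53 without sham 2, and the number higher from 2 without sham 3 to 8 without sham 2.

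Of 16 lymphocyte markers 3 passed the authors' filters into the table, summing to 8.74 to 11.5 CPM in sham and 19.3 to 39.3 CPM in TBI. Cd3e of T cells read 5.22, 1.10 and 0.0911 CPM in sham and 10.6, 0.359 and 0.392 CPM in TBI, overlapping between groups. Cd4, which rat microglia and macrophages also carry, read 3.05, 8.51 and 7.04 CPM and 13.1, 36.5 and 16.7 CPM (1.79 ± 0.49). Border macrophage and monocyte markers had a median of 1.14 over 8 genes, with 5 higher at p under 0.05 (8.2% of all genes). Without TBI 3 the median was 0.75 and 2 were higher. Mrc1, a mannose receptor of border macrophages, read 3.39, 4.51 and 3.55 CPM and 7.40, 7.64 and 27.4 CPM (1.84 ± 0.52), and F13a1 read 1.98, 2.11 and 1.56 CPM and 3.64, 3.35 and 7.60 CPM (1.33 ± 0.37). The summed markers were 12.1 to 31.3 CPM in sham and 22.0 to 57.9 CPM in TBI, with TBI 3 the highest. Their part in the other immune results was not tested. Of 7 haemoglobin and red cell genes 6 overlapped between groups, as Hbb did with 111, 38.0 and 75.7 CPM and 156, 92.0 and 128 CPM. Their median was 0.70, or 0.42 without sham 2, and 0 were higher at p under 0.05, or 4 without sham 1 and 3 without TBI 2.

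Reactive astrocyte genes were among the most different. Of 16 measured 12 were higher at p under 0.05 (8.2% of all genes) and 13 lay above sham without overlap (11.7% of all genes). The median Log2FC was 1.57. Gfap, the filament protein that reactive astrocytes enlarge, read 1146, 1304 and 891 CPM in sham and 2832, 5395 and 2583 CPM in TBI. The groups lay far apart, with TBI 2 highest and a Log2FC of 1.66 ± 0.30 and DESeq2 FDR = 9.55e-06. Aspg, an asparaginase of reactive astrocytes, read 2.48, 1.39 and 1.82 CPM and 6.43, 14.1 and 5.91 CPM (2.19 ± 0.41). Hspb1, a small heat shock protein, read 7.31, 11.3 and 8.54 CPM and 15.9, 27.6 and 23.0 CPM (1.25 ± 0.25). Vim, another filament protein, read 46.7, 94.7 and 61.9 CPM and 130.1, 239 and 418 CPM (1.91 ± 0.43), highest in TBI 3, where vessel and fibroblast genes were also high. Lcn2 and Cd44 overlapped, each with a high sham 2.

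Genes of astrocyte identity and transport had a median of 0.26 over 14 genes, or 0.10 without TBI 3. Of the 14, 8 lay above sham without overlap (11.7% of all genes) and 3 were higher at p under 0.05 (8.2% of all genes). At that p 0 were lower, or 2 without sham 1. Aqp4, the water channel of astrocyte endfeet, read 496, 647 and 414.5 CPM in sham and 761, 1161 and 703 CPM in TBI (0.72 ± 0.24). Gja1, the gap junction protein connexin 43, read 345, 360.1 and 308 CPM and 448, 551 and 436 CPM (0.47 ± 0.13). Mlc1, a membrane protein of the same endfeet, read 413.5, 379.5 and 342 CPM and 533, 749 and 522 CPM (0.63 ± 0.16). In all 3 the groups did not overlap. Slc1a3, a glutamate transporter, differed by 0.12 ± 0.10, Glul, glutamine synthetase, by 0.14 ± 0.10, and Kcnj10, the potassium channel that clears potassium from synapses, by −0.32 ± 0.19, and none of these had p under 0.05. The astrocyte list was 0.16 without sham 3.

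Vessel and matrix genes rested mostly on TBI 3. Collagens and fibroblast genes had a median Log2FC of 1.75 and 12 of 17 higher at p under 0.05 (8.2% of all genes). Without TBI 3 the median was 0.86 and 8 were higher. Col1a2, a fibrillar collagen chain, read 8.28, 15.5 and 5.92 CPM in sham and 66.5, 17.2 and 408 CPM in TBI (4.004 ± 1.10). TBI 2 was only slightly above sham 2, and TBI 3 stood far above all. Col1a1 read 7.54, 14.5 and 5.90 CPM and 41.2, 15.3 and 283 CPM (3.56 ± 1.04), in the same order. Igf2, a growth factor made in the meninges and choroid plexus, read 18.2, 29.1 and 11.6 CPM and 82.9, 28.6 and 534 CPM (3.41 ± 1.02), and there TBI 2 fell within sham. The basement membrane collagens Col4a1 and Col4a2 differed by 0.17 ± 0.22 and 0.02 ± 0.12. Cpz, a carboxypeptidase, had the highest Log2FC of genes with a mean of at least 5 CPM, 4.52 ± 1.11, from 0.762, 0.770 and 0.456 CPM and 4.81, 2.25 and 39.5 CPM. Also among the 10 highest were Slc22a6, Col3a1, Aldh1a2 and Igfbp2, each highest in TBI 3.

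Smooth muscle and pericyte genes had a median of 0.66, with 9 of 13 higher at p under 0.05 (8.2% of all genes). The median was 0.46 without TBI 3, and the number higher was 5 without sham 1, 4 without sham 2 and 2 without sham 3. Acta2, smooth muscle actin, read 19.0, 11.1 and 15.7 CPM in sham and 37.7, 24.3 and 243 CPM in TBI (2.69 ± 0.84). The pericyte receptor Pdgfrb read 29.0, 32.4 and 26.6 CPM and 39.2, 33.7 and 61.6 CPM (0.57 ± 0.22). Both separated the groups, with TBI 3 far ahead for Acta2. Endothelial and barrier genes had a median of 0.35, or 0.08 without TBI 3. At p under 0.05 4 of 17 were higher (8.2% of all genes), or 7 without TBI 1. Ocln, a tight junction protein, read 10.6, 10.1 and 9.86 CPM and 13.4, 15.03 and 17.8 CPM (0.56 ± 0.14). The efflux pump Abcb1a read 57.0, 53.4 and 55.0 CPM and 64.7, 72.4 and 88.1 CPM (0.41 ± 0.12), and the amino acid transporter Slc7a5 read 67.6, 68.9 and 68.5 CPM and 81.5, 98.6 and 87.4 CPM (0.35 ± 0.10). These 3 had no overlap, whereas Cldn5 and Vwf overlapped, with TBI 3 highest. Of the brain's own matrix, the inhibitor Timp2 was higher with 119.9, 134 and 162 CPM and 198, 230.2 and 250.3 CPM (0.67 ± 0.15), and the protease Mmp2 with 6.40, 9.28 and 5.56 CPM and 12.3, 16.5 and 12.8 CPM (0.94 ± 0.23). The perineuronal net proteins Acan, Hapln4 and Tnr overlapped.

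Cholesterol genes were the largest group among the lower ones. Of 20 measured, 14 were lower at p under 0.05, against 1.4% of all genes, 13 had all TBI libraries below all sham libraries, against 3.04%, and DESeq2 called 5, against 0.0777%. The median Log2FC was −0.36. When each library was left out, the median lay between −0.45 and −0.30, and the number lower at p under 0.05 was 6 without TBI 2, 9 without sham 3 and at most 15. The brain makes its own cholesterol, chiefly in oligodendrocytes and astrocytes, and the factor Srebf2 switches on synthesis and uptake together when sterols are scarce. Sham 2 held the highest sum of both the cholesterol genes (2315 CPM) and the myelin genes (19284 CPM). Without sham 2 the median of the cholesterol list was −0.35 and that of the myelin list 0.02.

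Along the pathway, Hmgcs1, which makes the precursor HMG-CoA, read 276, 353 and 363 CPM in sham and 254, 198 and 279.9 CPM in TBI (−0.48 ± 0.17). TBI 2 was the lowest library, and the groups overlapped because TBI 3 was just above sham 1. The squalene step followed. Fdft1, squalene synthase, read 90.9, 106 and 120.4 CPM and 80.2, 57.7 and 77.4 CPM (−0.60 ± 0.16). Sqle, squalene epoxidase, read 77.8, 91.7 and 91.6 CPM and 63.8, 61.2 and 63.8 CPM, the 3 TBI libraries close together and below every sham library, with a Log2FC of −0.51 ± 0.11 and DESeq2 FDR = 0.00421. Stard4, which carries sterols between membranes, was lower as well. It read 12.2, 16.6 and 17.8 CPM and 8.94, 8.69 and 9.01 CPM (−0.85 ± 0.17, DESeq2 FDR = 0.00607), again with no overlap. Abca1, which exports cholesterol, was the single member higher at p under 0.05, with 30.4, 60.4 and 45.2 CPM and 79.6, 133 and 86.1 CPM (1.09 ± 0.29). Mvk differed by −0.11 ± 0.12. The plot of the cholesterol genes shows synthesis on the lower side and Abca1 on the higher.

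**Figure D5:**
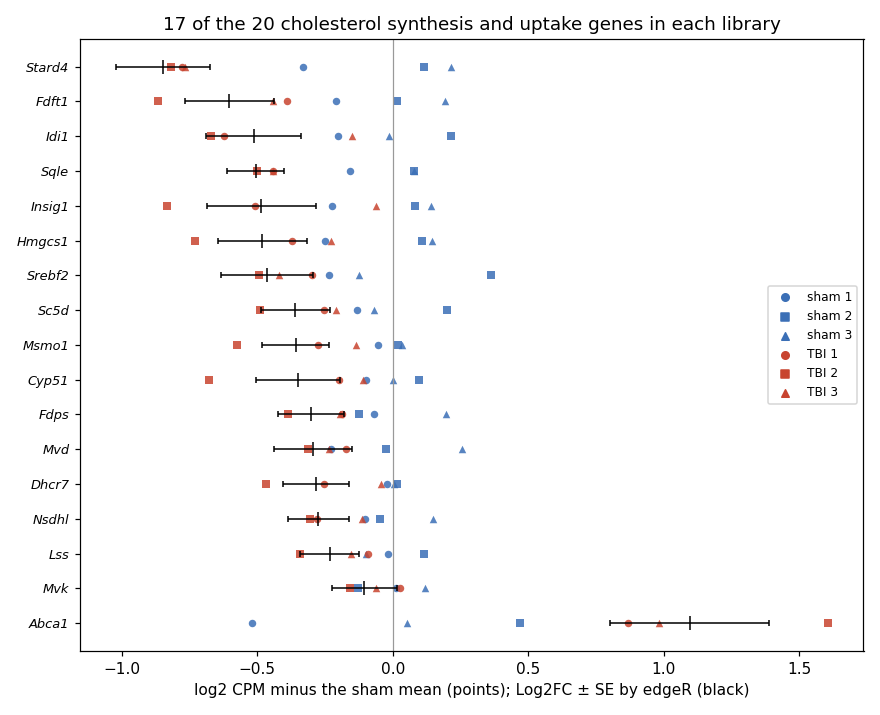
Rows are 17 of the 20 measured cholesterol genes in order of Log2FC. Points are the libraries (blue sham, red TBI), as log2 CPM minus the gene's sham mean, and the black mark is the edgeR Log2FC with its SE as a bar. All but Abca1 (1.09 ± 0.29) have a Log2FC below 0, and TBI 2 is the lowest library for most of them.

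Promoters of 2 of these genes are printed for their CCAAT boxes, which the factor NF-Y is known to bind beside sterol elements. Idi1 lies at chr17:66547475-66547774 on the minus strand and Hmgcs1 at chr2:53382054-53382353 on the plus strand of GRCr8, and capitals mark ATTGG, the reverse of CCAAT.
Idi1: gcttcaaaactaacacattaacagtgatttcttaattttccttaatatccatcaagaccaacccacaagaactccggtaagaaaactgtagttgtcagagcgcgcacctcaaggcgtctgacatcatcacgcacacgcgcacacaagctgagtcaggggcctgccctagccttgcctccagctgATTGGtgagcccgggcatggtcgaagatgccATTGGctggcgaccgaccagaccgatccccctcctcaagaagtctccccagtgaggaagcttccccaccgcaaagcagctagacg
Hmgcs1: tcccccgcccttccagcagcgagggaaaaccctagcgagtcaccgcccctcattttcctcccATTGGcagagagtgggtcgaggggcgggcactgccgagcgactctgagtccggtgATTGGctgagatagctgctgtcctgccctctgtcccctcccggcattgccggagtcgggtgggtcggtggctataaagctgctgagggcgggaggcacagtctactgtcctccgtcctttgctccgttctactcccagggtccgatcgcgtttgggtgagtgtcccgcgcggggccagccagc

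CCAAT or ATTGG stood in 11 of 14 cholesterol promoters of the table (78.6%) and in 38.4% of the promoters of genes in the bulk table. The sterol element, searched in the single form TCACNCCAC or its reverse GTGGNGTGA, stood in 0 of 14. It stood in 1.25% of all promoters and in 1.22% of those of genes in the bulk table. At so low a share, 0 of 14 cannot tell whether these genes hold it less or more often.

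Of 12 iron and heme genes 3 were higher at p under 0.05 (8.2% of all genes) and 1 was lower (1.4% of all genes). Their median was 0.22. The median was 0.14 without sham 3, and 0.38 with 5 higher without sham 2 or without TBI 2. Tfrc, the receptor that takes up iron, read 122, 119 and 90.6 CPM in sham and 88.4, 71.7 and 79.8 CPM in TBI (−0.51 ± 0.14), and DESeq2 called it lower with FDR = 0.0338. Ftl1, the light chain of the store ferritin, read 80.0, 64.3 and 70.0 CPM and 104, 149 and 127 CPM (0.79 ± 0.15). Hmox1, which breaks down heme, read 5.56, 5.83 and 5.17 CPM and 10.6, 22.2 and 9.15 CPM (1.31 ± 0.34). Each of these separated the groups. Cp, an iron oxidase, read 5.41, 14.7 and 5.88 CPM and 18.2, 31.2 and 66.8 CPM (2.12 ± 0.56), highest in TBI 3. The 12 glucocorticoid response genes had a median of 0.0, with 2 higher (8.2% of all genes) and 1 lower (1.4%) at p under 0.05. Of these genes, the metallothioneins Mt1 and Mt2A, which bind zinc and copper, were higher at 0.95 ± 0.24 and 0.98 ± 0.28. Klf9, a glucocorticoid target, was lower at −0.25 ± 0.10 with 127, 117 and 111 CPM and 106, 105 and 96.3 CPM. No member was lower at p under 0.05 without sham 1, without TBI 1 or without TBI 3.

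The 15 glycolysis genes had a median of −0.09, and only Hk2, a hexokinase, was higher at p under 0.05, with 10.2, 14.5 and 7.79 CPM and 19.1, 31.6 and 16.7 CPM (1.02 ± 0.31). None of 18 oxidative phosphorylation genes had p under 0.05 and their Log2FC ran from −0.10 to 0.06. The median of −0.04 turned to 0.01 on the deposited log2 scale. The 14 cytosolic ribosomal proteins were all positive with a median of 0.24, but 1 had p under 0.05, Rplp0 (0.34 ± 0.11). In most of them sham 1 stood with the TBI libraries, as in Rpl5 with 329, 235 and 237 CPM and 315, 330.2 and 351 CPM, and without sham 1 the number was 13 and the median 0.40. Without sham 2 the median was 0.13. The cell cycle and heat shock lists had medians of 0.08 and −0.01, and the heat shock median took a positive sign under library totals (0.03). The clock list had a median of 0.18 with 0 genes at p under 0.05 by edgeR and 0 called by DESeq2. Its median ran from 0.09 without TBI 3 to 0.28 without sham 1, where 4 genes were higher. Of apoptosis genes, Casp8, an initiator caspase, read 0.990, 1.17 and 1.002 CPM and 1.94, 2.81 and 3.63 CPM (1.36 ± 0.34), and Fas, a death receptor, read 0.495, 1.504 and 0.342 CPM and 1.82, 2.35 and 2.35 CPM (1.46 ± 0.57), while Bax, Mdm2 and Cdkn1a overlapped between groups.

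Genes were also read by their name stem. Among 53 stems with at least 20 genes, 18 had no gene at p under 0.05. The mitochondrial ribosomal genes Mrpl (45) and Mrps (28) and the cilia genes Cfap (35) had none. Of 252 zinc finger genes named Zfp, 4 were higher and 0 lower, and of 289 solute carriers named Slc, 32 were higher and 5 lower, where all genes had 8.2% higher and 1.4% lower. Collagens named Col had 9 of 35 higher, and tripartite motif genes named Trim 8 of 43.

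Myelin and oligodendrocyte genes had a median of −0.59, with 0 of 18 at p under 0.05 by edgeR and 0 called by DESeq2. Without sham 1 the median was −0.89 with 11 lower, without TBI 2 it was −0.91, and without sham 2 it was 0.02. Mbp, myelin basic protein, read 2933, 8741 and 3544 CPM in sham and 2683, 4088 and 2920 CPM in TBI. Sham 2 stood far above all other libraries, and sham 1, sham 3 and the TBI libraries overlapped. The precursor genes had a median of −0.28, or 0.07 without sham 2 and −0.18 without TBI 3, and 3 were lower without sham 1. Cspg4, a proteoglycan of precursors and pericytes, read 29.4, 41.0 and 32.9 CPM and 37.5, 42.9 and 49.5 CPM (0.29 ± 0.16). Anln, an actin binding protein, was lower with 29.2, 46.1 and 35.9 CPM and 23.4, 27.6 and 20.7 CPM (−0.67 ± 0.20), and it too was highest in sham 2.

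Granule neuron markers had a median of 0.05 and overlapped almost throughout. C1ql2, a secreted synaptic protein of granule neurons, read 209, 14.9 and 28.1 CPM in sham and 128, 28.9 and 116 CPM in TBI (0.09 ± 0.96), and Calb1, a calcium buffer, read 128, 37.9 and 37.7 CPM and 92.0, 38.7 and 88.1 CPM (0.08 ± 0.53). Sham 1, TBI 1 and TBI 3 were high in each. Npnt, a matrix protein, was the single marker higher at p under 0.05, with 1.94, 2.90 and 1.53 CPM and 3.80, 3.40 and 4.67 CPM (0.86 ± 0.31). The granule median ran from −0.31 without sham 3 to 0.85 without sham 1, where 6 genes were higher at p under 0.05. CA1, CA3 and mossy cell markers had a median of −0.24, or −0.08 without sham 1 or sham 2 and −0.15 without TBI 3, and Wfs1 of CA1 read 421.8, 209.8 and 54.1 CPM and 452, 120.2 and 144 CPM. At this spread within groups, a small difference in granule neuron genes was not detectable.

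Of the 16 interneuron markers 0 had p under 0.05 by edgeR and 0 were called by DESeq2. The median was −0.17, or −0.05 without sham 3 and −0.04 without TBI 3. Pvalb, a calcium binding protein of basket cells, read 45.2, 35.4 and 51.4 CPM in sham and 35.1, 22.0 and 39.2 CPM in TBI (−0.50 ± 0.23). Sst, somatostatin, read 91.3, 49.1 and 80.2 CPM and 78.9, 70.5 and 74.2 CPM (−0.02 ± 0.21). Gad1, which makes GABA, read 196, 221 and 247 CPM and 209, 181 and 189.8 CPM (−0.24 ± 0.12). All overlapped. The 15 neurogenesis genes had a median of −0.14, and 10 were negative. It ran from −0.23 without sham 1, where 3 were lower at p under 0.05, to 0.0 without sham 2. Summed, they held 1067 to 1216 CPM in sham and 977 to 1054 CPM in TBI. All TBI libraries lay below sham for 1 of them (3.04% of all genes). Dcx, of newborn neurons, overlapped with 26.9, 41.2 and 37.3 CPM and 30.1, 33.3 and 35.9 CPM. Hopx, a gene of neural stem cells and astrocytes, was higher at p under 0.05 (8.2% of all genes), the single such member. It read 28.9, 18.5 and 15.8 CPM and 33.1, 40.7 and 36.1 CPM (0.77 ± 0.22). Immediate-early genes, which follow neuronal activity, had a median of 0.04. Fos read 3.43, 10.4 and 6.76 CPM and 8.81, 11.0 and 6.94 CPM and Arc 52.9, 81.3 and 69.1 CPM and 80.0, 76.8 and 69.9 CPM, both overlapping, and only Ier2 was higher at p under 0.05, with 7.88, 8.29 and 8.77 CPM and 12.5, 12.6 and 14.1 CPM (0.61 ± 0.13). Neuropeptide genes had a median of −0.03 (0.01 under library totals) and neurotrophin genes −0.19, with 0 members at p under 0.05 in either list by edgeR and 0 called by DESeq2. Without sham 1 the neuropeptide median was 0.13 and 4 were higher. The neurotrophin median was −0.06 without sham 2, −0.07 without TBI 2 and −0.12 without sham 1.

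Ion channel, receptor and synapse lists had small negative medians. The 18 sodium, calcium and HCN channels had a median of −0.28, 2 were lower at p under 0.05 (1.4% of all genes) and 4 lay below sham without overlap (3.04% of all genes). Scn2b, an auxiliary subunit of sodium channels, read 68.6, 96.5 and 83.3 CPM in sham and 65.5, 64.3 and 53.2 CPM in TBI (−0.48 ± 0.16), and Scn4b read 30.6, 37.3 and 35.9 CPM and 29.2, 28.5 and 18.1 CPM (−0.49 ± 0.20). TBI 3 was the lowest library in both. Without sham 1 the number lower was 7, without TBI 2 it was 4, without sham 3 it was 1, and without sham 2 or without TBI 3 it was 0. The median was −0.17 without TBI 3. The 16 potassium channel genes had a median of −0.28, or −0.14 without TBI 3, and 4 were lower, or 2 without sham 2 and 1 without sham 3 or TBI 3. Kcnc1, which lets neurons fire fast, read 83.6, 91.2 and 104 CPM and 79.1, 69.5 and 67.8 CPM (−0.41 ± 0.13). Kcnc2 and Kcna2 were also lower at p under 0.05, by −0.46 ± 0.18 and −0.33 ± 0.13, and both overlapped between groups.

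Grm7, a receptor that senses glutamate through G proteins, read 29.2, 32.3 and 35.2 CPM in sham and 28.0, 27.6 and 25.5 CPM in TBI (−0.29 ± 0.12), lower at p under 0.05 and without overlap. The 13 GABA-A subunits had a median of −0.19, from −0.12 without TBI 3 to −0.30 without TBI 1 or TBI 2. Gabrd, of granule neurons, split each group, with 39.0, 7.92 and 11.7 CPM and 28.2, 10.6 and 21.9 CPM. Of 17 AMPA, NMDA and kainate receptor genes 0 were lower at p under 0.05 and 16 had a negative Log2FC, and Grin2c, an NMDA subunit that astrocytes also carry, was higher with 129.7, 114 and 94.0 CPM and 162, 155 and 143 CPM (0.41 ± 0.13). The 18 synaptic vesicle genes had a median of −0.24, and 2 were lower at p under 0.05 (1.4% of all genes). The number was 4 without sham 1 and 1 without sham 2, sham 3, TBI 2 or TBI 3. Among them Cplx2, complexin, read 934, 831 and 856 CPM and 806, 737 and 701 CPM (−0.26 ± 0.10), and Syt2 was lower at −0.90 ± 0.34 with overlap. The 17 postsynaptic scaffold genes and the 17 neurexin and adhesion genes had medians of −0.14 and −0.15. In each list 1 gene was lower at p under 0.05 (1.4% of all genes), and 0 without TBI 3. The number was 3 without TBI 2 for the scaffolds and 4 without sham 1 for the adhesion genes. Dlgap1, a postsynaptic scaffold, read 324, 309.9 and 323 CPM and 294, 268 and 242 CPM (−0.29 ± 0.11). Lrrtm2, a synaptic adhesion protein, read 53.3, 64.4 and 52.6 CPM and 51.1, 46.8 and 41.1 CPM (−0.33 ± 0.13). Of 22 axon guidance genes 0 had p under 0.05, with a median of −0.21, or −0.12 without TBI 3 and −0.14 without sham 2, and 3 were lower without sham 1.

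DESeq2 called 11 genes lower, of which 6 stand in a list, 5 of cholesterol and Tfrc. Outside the lists were Tanc1 and Akap5, scaffolds of the postsynapse, and Acat2. Tanc1 read 175, 173 and 164 CPM in sham and 139, 146 and 131 CPM in TBI (−0.34 ± 0.09, DESeq2 FDR = 0.0273). Akap5, which holds kinases at the synapse, read 49.9, 42.1 and 44.8 CPM and 37.2, 36.0 and 33.4 CPM (−0.40 ± 0.10, DESeq2 FDR = 0.0481). Acat2, which makes acetoacetyl-CoA at the head of sterol synthesis, read 42.7, 43.7 and 52.5 CPM and 34.1, 29.4 and 35.4 CPM (−0.53 ± 0.13). In these genes the TBI libraries lay below the sham libraries by narrow margins. The uncharacterized gene with Entrez identifier 103690056 was lower at −0.39 ± 0.10. LOC100912450 had 8, 24 and 11 counts in sham and 0 in every TBI library. Against a floor of 3 counts per library it was at least 4.52-fold lower, a limit that covers counting error only.

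Other lower genes by edgeR's p included Sgtb, a cochaperone, with 42.5, 46.6 and 51.4 CPM in sham and 35.0, 39.0 and 34.9 CPM in TBI (−0.41 ± 0.12). Gpr83, a G protein-coupled receptor of neurons, read 33.1, 41.5 and 42.2 CPM and 31.3, 27.4 and 28.7 CPM (−0.46 ± 0.13). Hecw1, a ubiquitin ligase of neurons, read 24.6, 23.1 and 26.9 CPM and 16.0, 21.3 and 18.5 CPM (−0.46 ± 0.14). Separation of the groups was a condition for choosing these genes, and their differences were under 2-fold. Sptssb, a subunit that sets the chain length of sphingolipids, read 6.86, 6.12 and 6.49 CPM and 4.41, 4.47 and 2.85 CPM (−0.77 ± 0.23), and Setl2 differed by −0.65 ± 0.20. Most of the largest negative Log2FC at a mean of at least 5 CPM came from genes high in sham 2, such as LOC100365839 with 0.0543, 38.0 and 3.31 CPM in sham and at most 0.575 CPM in TBI. Slc5a11, an inositol transporter, read 3.69, 12.1 and 6.26 CPM and 2.35, 3.66 and 3.52 CPM (−1.25 ± 0.44), and Hhip overlapped. The genes LOC500035, LOC108348096, Ugt8, Ermn and Nmb also overlapped between groups.

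Outside the lists, Mvp, the major vault protein, read 21.4, 21.1 and 17.9 CPM in sham and 32.9, 38.8 and 38.2 CPM in TBI (0.83 ± 0.12). Piezo1, a channel opened by membrane stretch, read 7.16, 9.04 and 7.67 CPM and 14.6, 18.0 and 18.4 CPM (1.06 ± 0.16). Vasp, which extends actin filaments, read 15.8, 17.6 and 15.7 CPM and 26.4, 27.8 and 29.1 CPM (0.72 ± 0.11). In each gene the 3 sham libraries were close and the 3 TBI libraries were close. Fermt3, which activates integrins in blood cells, read 6.93, 6.67 and 7.82 CPM and 15.6, 24.5 and 16.9 CPM (1.38 ± 0.20). Rab32, of lysosome-related vesicles, read 0.724, 1.21 and 0.774 CPM and 3.92, 5.42 and 3.60 CPM (2.22 ± 0.34), and Ssc5d, a soluble scavenger receptor, read 10.7, 11.1 and 10.2 CPM and 18.8, 31.1 and 28.3 CPM (1.25 ± 0.19). DESeq2 called these 6 genes higher, with FDR between 2.12e-05 and 0.00015.

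The difference was also read within each surgery period, where spring has 1 TBI and autumn 1 sham library. For Gfap the difference of mean log2 CPM was 1.21 in spring and 2.07 in autumn, for Cd68 2.28 and 3.07, and for Psmb8 1.49 and 1.61. For Sqle it was −0.40 and −0.55. The interaction of group and period, tested by edgeR, passed an FDR of 0.05 in 0 genes, and 100 genes (0.706%) had p under 0.05. DESeq2 with the period in the fit called 123 genes higher and 5 lower.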

How the data were processed

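Poly(A) RNA of the dentate gyrus was sequenced from 3 sham and 3 TBI rats, 1 library each. The authors trimmed the reads and mapped them with kallisto in ExpressAnalyst to the rat reference (Rnor_6.0 in the submitters' notes; version of kallisto not given in the sources used here), and deposited estimated counts per transcript. They also deposited log2 CPM per gene, after removing unannotated genes, genes with a summed count under 4 and the 15% of lowest variance. Library totals were 25121893 to 44649404 estimated counts.

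Gene counts were computed backwards from the authors' log2 CPM and each library's total, then rounded to whole numbers. Gene totals held 97.8 to 98.5% of the transcript totals. Entrez identifiers were named through RefSeq (13778 of 14166 genes) and the study's supplement (56), and 332 stayed unnamed. TBI was compared with sham by edgeR 4.0.16 (quasi-likelihood, TMM, Benjamini-Hochberg adjustment over all 14166 genes, no covariate) in R 4.3.3. DESeq2 1.42.0, the study's tool, and limma 3.58.1 served as alternatives. The count tests were tested on simulated data, where DESeq2 called more unchanged genes than edgeR and more than its FDR allows. Period values are differences of group means of log2 CPM. Tables and plots used Python 3.11.15 with pandas 2.3.3 and matplotlib 3.10.9.

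The members and the 52 gene lists (763 of 876 entries in the table) were chosen with earlier results of these data known. The text names up to 4 members a list of smallest edgeR p and the 15 genes of smallest p in each direction outside complement. Those 15 were taken only among named genes with a mean of at least 1 CPM and groups that do not overlap. It also names the 10 largest Log2FC in each direction at a mean of at least 5 CPM. Genes that set a library apart and genes DESeq2 called lower complete the choice. Members that overlapped, and some further examples, were chosen after their values were seen. Each library is a separate rat, so p-values measure the spread between rats. The nuclei libraries were not used here, nor were columns on righting time and pulse pressure. A few genes are counted in their lists but not reported here.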

Additional observations from a re-analysis of the deposited data

Results flagged for a closer look

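With 3 libraries a group, the check for a single library far from its group could not be applied. Genes were set apart where TBI and sham libraries did not overlap within either of the 2 surgery periods. In addition, TBI had to lie above sham in 1 period and below it in the other, without a test. The interaction of group and period passed an FDR of 0.05 by edgeR in 0 genes (smallest FDR 1), 100 genes had p under 0.05, and the difference between periods was not tested otherwise. In all, 1618 genes (11.4%) met both conditions. In each period 1 of the groups is a single library, so the spread between rats alone can meet them.

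Among the genes named here or in a list, Lck, a kinase of T cells, differed by −0.11 in spring and 0.52 in autumn on the log2 CPM scale. Clic6, of the choroid plexus, differed by −3.12 and 0.38, with 9.32 CPM in sham 2. Ttr, also of the choroid plexus, differed by −3.03 and 3.00. Pcna, a replication clamp, differed by −0.02 and 0.40. Atp8b3, a lipid flippase, differed by 0.41 and −1.06, with 9.84 CPM in sham 3 and 2.70 to 4.91 CPM in the other libraries. Echs1, a mitochondrial enzyme of fatty acid breakdown, differed by 0.64 and −0.78, with 54.2 CPM in TBI 1 and 13.8 CPM in TBI 2.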

How the results depend on the processing

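Counts depended on the tool and on single libraries. Genes past an FDR of 0.05 were 0 by edgeR's quasi-likelihood test, 372 by its likelihood ratio test, 349 by DESeq2 and 0 to 1 when each library was left out (1 without TBI replicate 3). The number higher at p under 0.05 (1162) was 713 to 1343 with a library left out. The number lower (198) was 308 with RLE size factors, 114 with library totals, 377 by DESeq2, 110 by limma, 117 with surgery period in the fit and 66 to 604 with a library left out. Genes without overlap were 1934 to 3162 above and 673 to 1314 below with a library left out, where fewer libraries have to be separated, and 686 below after TMM scaling. DESeq2's 338 higher and 11 lower calls became 1148 and 377 when adjusted over genes with p under 0.05 only, 123 and 5 with surgery period, and 118 to 455 and 4 to 71 with a library left out. With the replicate block, 61 genes passed the FDR by edgeR, 1262 were higher and 371 lower at p under 0.05, and DESeq2 called 415 higher and 27 lower. The deviations of same-numbered libraries correlated at 0.364, 0.221 and −0.0525, so the numbers were not taken as a pairing. The causes were not tested.

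List medians moved beyond the spread in 24 of 312 fits with a library left out and in 0 to 4 of 52 lists under the other settings. The 284 named genes were chosen largely by their values in these data, so their counts are no measure of robustness. Of them, 83 passed the FDR by DESeq2 and 27 with the replicate block, beside 349 and 61 of all 14166 genes. A bias-adjusted quasi-likelihood fit, chosen after seeing the data, gave 1187 higher and 208 lower at p under 0.05. With 3 rats a group an exact permutation test of 1 gene cannot give p below 0.1. Sparse genes were the least precise, with a median SE of Log2FC of 0.66 at a mean under 1 CPM and 0.12 over 100 CPM.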
